A study of Homo sapiens with 4 samples.

Results

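The genes described here are 33 neighbours on the short arm of human chromosome 19, in band 19p13, named for probe sets that read higher in 320-IWR cells than in COLO-320DM cells. They lie in 2 stretches of the GRCh38.p14 assembly. The first, from CC2D1A to ADGRE2 at chr19:13906201-14778560, spans 872 kb and holds 19 of them. The second, from CPAMD8 to PLVAP at chr19:16892951-17377342, spans 484 kb and holds 14. GIPC1 and CLEC17A had no probe set annotated to a single symbol, which left 31 measured genes of 19775 in the whole series. COLO-320DM is an established human colorectal cancer line with active Wnt/β-catenin signalling. 320-IWR is the subline derived from it by long continuous exposure to IWR-1, a small molecule that inhibits tankyrase, and the labels call it resistant to tankyrase inhibitors. Total RNA of each line, grown in dishes to near confluency, was hybridised to 2 GeneChip Human Genome U133 Plus 2.0 arrays, and whether IWR-1 was present at harvest is not given in the sources used here. The arrays are of the uncloned 320-IWR line as far as the labels say, and nothing says that the arrays of a line came from separate cultures, so their spread may be technical.

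Because the members were chosen on the very contrast between these lines, their differences are a description and are not tested. Values are probe set intensities, the normalised brightness of the probes that read one transcript, and each gene is shown by its brightest probe set. Differences are 320-IWR minus COLO-320DM on the log2 scale, with the standard error of the fit over all probe sets. A gene was called when its Benjamini-Hochberg adjusted p over all probe sets was under 0.05 and its difference at least 2-fold. No detection calls were used here, so the distance above background is unknown, and genes with a mean log2 intensity of at least 6 in a line are treated as the brighter ones. Array medians lay between 41.0 and 41.8, and the log2 values of the arrays of a line correlated at 0.990 and 0.991 over the probe sets. Of 8 colon markers, 6 reached a mean log2 intensity of 6 in a line, CDX2 among them, while EPCAM and CDH1 were dim in both. KRT8 and KRT18 were called lower and KRT20 was called higher in 320-IWR. A mean log2 intensity of 6 in a line was reached by 1 of 4 leukocyte and 3 of 6 fibroblast markers measured. The same held for 1 of 6 endothelial and 0 of 5 neuroendocrine markers. In COLO-320DM and 320-IWR, PTPRC had means of 157 and 195, and COL3A1 of 742 and 732. These lists had 0 calls, where 0.592% of all genes were called. The 3 prime to 5 prime signal ratio of the GAPDH and ACTB control probe sets, a sign of RNA quality, lay between 0.97 and 1.09 on all 4 arrays.

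Band 19p13 is among the most gene-dense parts of the human genome, and its genes have no single function in common. Those listed here encode, among others, a catalytic subunit of protein kinase A, adhesion G protein-coupled receptors, a histone chaperone, an RNA helicase of mRNA export, a heat shock co-chaperone, a complex I subunit and subunits of ubiquitin ligase and DNA repair complexes. Neighbouring genes can share promoters, chromatin or the number of DNA copies they are read from, which in cultured cancer cells often differs between a line and its sublines. DNA copy number and chromatin were not measured in this series.

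The starts of 3 members are shown to let a reader compare what precedes neighbouring genes. RefSeq promoters, from 250 bases before to 50 after a start, were matched by symbol for 25 of the 33 named genes, 10 on the forward and 15 on the reverse strand. Capitals mark matches on either strand, and adjoining capitals can belong to overlapping matches. The motifs were the GC box GGGCGG, the CCAAT box and the heat shock element GAANNTTC. DDX39A, the brightest member, had 3 CCAAT boxes at its first listed start, chr19:14419334-14419633 on the reverse strand. ANKLE1, the member with one of the largest differences, had none of these motifs at chr19:17281651-17281950 on the forward strand. DNAJB1, a heat shock gene, had 2 heat shock elements, 7 GC boxes and 1 CCAAT box at its second listed start, chr19:14518348-14518647 on the reverse strand, where 1 heat shock element overlaps a GC box. All coordinates are those of GRCh38.p14.
DDX39A: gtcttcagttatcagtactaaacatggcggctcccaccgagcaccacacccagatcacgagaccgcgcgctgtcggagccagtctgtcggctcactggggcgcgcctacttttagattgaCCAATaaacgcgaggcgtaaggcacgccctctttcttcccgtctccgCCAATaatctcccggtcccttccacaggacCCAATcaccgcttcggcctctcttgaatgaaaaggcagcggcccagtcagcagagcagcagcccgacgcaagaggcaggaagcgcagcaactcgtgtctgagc
ANKLE1: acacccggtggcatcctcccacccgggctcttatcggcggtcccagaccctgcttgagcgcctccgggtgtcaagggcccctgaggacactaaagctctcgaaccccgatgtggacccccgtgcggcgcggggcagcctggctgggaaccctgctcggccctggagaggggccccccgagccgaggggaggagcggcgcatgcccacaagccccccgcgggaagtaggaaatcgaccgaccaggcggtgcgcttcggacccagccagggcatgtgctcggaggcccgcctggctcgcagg
DNAJB1: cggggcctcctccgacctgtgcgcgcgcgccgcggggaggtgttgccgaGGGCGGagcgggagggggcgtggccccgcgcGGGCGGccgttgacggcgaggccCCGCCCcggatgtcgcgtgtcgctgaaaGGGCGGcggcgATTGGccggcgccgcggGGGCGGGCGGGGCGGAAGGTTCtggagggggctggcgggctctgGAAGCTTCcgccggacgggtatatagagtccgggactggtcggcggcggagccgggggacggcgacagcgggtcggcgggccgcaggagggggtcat

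At the first listed start of each gene, the GC box was found in 18 of 25 member promoters, or 72.0%, against 62.1% of the 1510 promoters of chromosome 19 and 44.6% of all 27305. The CCAAT box was found in 11 of the 25, or 44.0%, against 38.5% and 35.7%. The E box CACGTG was found in 3 of the 25, against 7.55% on chromosome 19 and 7.43% of all. The heat shock element was found at the first listed start of 0 members, against 6.87% of all promoters. The TCF/LEF letters CTTTGAA and CTTTGAT, the kind read by the partners of β-catenin, were found in 2 and 1 of the 25, against 4.53% and 2.64% of all. Member promoters had a median GC content of 65.7%, from 44.7% to 78.0%, beside 62.7% on chromosome 19 and 58.3% over all promoters. These matches describe letters and do not show a bound site.

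The measured members were mostly higher in 320-IWR, by about 1.5-fold where they were bright. The mean was higher for 27 of 31, against 54.2% of all genes, and the median difference was 0.36 on the log2 scale, or 1.28-fold, against 0.02 for all genes. The median was 0.21 when COLO-320DM replicate 1 was left out. Only ADGRE5 was called, where 0.192% of all genes were called higher, and 0 members were called when any 1 of the 4 arrays was left out. The members were picked for this direction, so nothing is read from these counts.

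The difference followed brightness. The 23 members with a mean log2 intensity of at least 6 in a line were all higher in 320-IWR, with a median of 0.59, or 1.51-fold, and a range from 0.03 to 1.59. All 23 reached it in COLO-320DM too. Both 320-IWR arrays lay above both COLO-320DM arrays for 17 of them, an order shown by 23.1% of the 10952 genes this bright, whose median was 0.01. The 8 dimmer members had a median of 0.02 and a range from -0.23 to 0.19, and 4 of them were higher. Their arrays were apart in this order for 2 of the 8, ADGRE2 and CPAMD8, against 18.5% of all dimmer genes, and in the reverse order for ABHD8 alone. The median of the bright members was 0.59 in the first stretch and 0.52 in the second. Within same-numbered arrays, 21 of the 23 were higher in the first pair and all 23 in the second. Leaving out COLO-320DM replicate 1 turned SAMD1 to -0.26, leaving out 320-IWR replicate 2 turned SAMD1 to -0.28 and PRKACA and DCAF15 to -0.05, and leaving out COLO-320DM replicate 2 turned ANO8 to -0.10. These 4 bright members thus did not hold their direction, and the other 19 did.

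**Figure D1:**
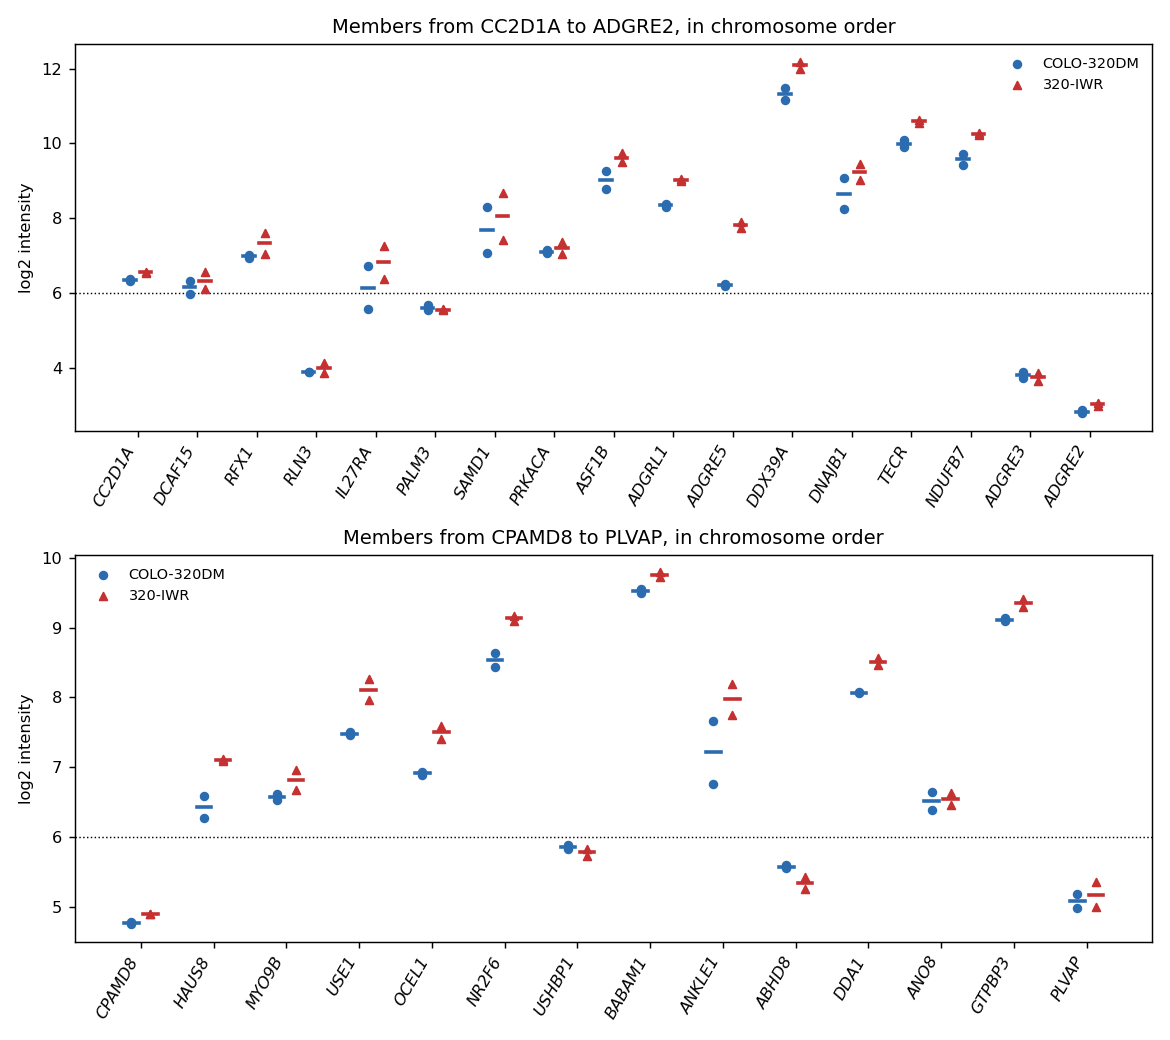
Log2 intensity of the 31 measured members on each array, in chromosome order, with COLO-320DM as blue circles, 320-IWR as red triangles, bars at the mean of 2 arrays and a dotted line at 6. The members above the line mostly have both triangles over both circles, ADGRE5 by the widest gap, while those below it lie close together.

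The surface receptors held both the largest difference and several of the dimmest genes. ADGRE5 encodes CD97, an adhesion receptor that binds CD55 on other cells. It read 76.1 and 73.6 in COLO-320DM and 214 and 238 in 320-IWR, 3.02-fold higher, with a log2 difference of 1.59 ± 0.13 (SE, n = 2 arrays a line). Its arrays were tight in each line and far apart between lines, and the difference lay between 1.52 and 1.67 with any 1 array left out, though the call was then lost. ADGRL1 encodes latrophilin 1, a receptor for teneurins at synapses. It read 317 and 335 against 509 and 526, a difference of 0.67 ± 0.12, and its further probe sets gave 0.56 and 0.49. The groups did not overlap for its brightest probe set. ADGRE2 and ADGRE3, myeloid receptors of the same family as ADGRE5, were near the bottom of the scale. ADGRE2 read 6.93 and 7.34 against 7.90 and 8.39, and its second probe set differed by -0.01. ADGRE3 read 13.2 and 14.8 against 14.5 and 12.5. Of the 3 EGF-type receptors in the stretch, ADGRE5 was thus the bright one and the one that stood apart. PLVAP, a protein of endothelial fenestrae, read between 31.6 and 40.9 with overlapping lines.

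Genes of RNA and protein handling differed by a median of 0.63. DDX39A encodes an RNA helicase that works in mRNA splicing and export. It read 2291 and 2847 in COLO-320DM and 4093 and 4663 in 320-IWR, 1.71-fold higher, with a difference of 0.77 ± 0.16. Both 320-IWR arrays were far above the COLO-320DM arrays. USE1, a SNARE protein of the route from the Golgi back to the endoplasmic reticulum, read 176 and 181 against 249 and 306, a difference of 0.63 ± 0.15, and its second probe set gave 0.67. DNAJB1, the HSP40 co-chaperone that stimulates HSP70, read 305 and 538 against 518 and 701, a difference of 0.57 ± 0.32. Here replicate 2 was above replicate 1 in both lines and the lines overlapped, while its second probe set read 241 and 393 against 458 and 527, a difference of 0.67 ± 0.26 without overlap.

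Genes of mitochondria and lipids were split in size. NDUFB7, an accessory subunit of respiratory complex I, read 687 and 851 against 1209 and 1245, a difference of 0.68 ± 0.15. TECR, the reductase that closes each cycle of very long chain fatty acid elongation, read 955 and 1089 against 1486 and 1593, a difference of 0.59 ± 0.13. Both genes were about 1.5-fold higher or more without overlap, and they lie 97 bases apart. GTPBP3, which modifies the wobble uridine of mitochondrial tRNAs, read 545 and 566 against 680 and 626, a difference of 0.23 ± 0.12. Its second, dimmer probe set gave 0.72 ± 0.18, so the size of its difference depends on the probe set. ABHD8, an abhydrolase of little known function, read 47.1 and 48.1 against 43.1 and 38.4 and was the lowest member at -0.23 ± 0.13. ANO8, which tethers the endoplasmic reticulum to the plasma membrane, read 100 and 83.6 against 88.0 and 98.7, and its 0.03 ± 0.15 was the smallest difference of a bright member.

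Genes of transcription and chromatin were higher in 5 of 5 cases, with a median of 0.36. ASF1B, a chaperone that hands histones H3 and H4 to the assembly machinery in dividing cells, read 438 and 611 against 732 and 855, a difference of 0.61 ± 0.21. NR2F6, an orphan nuclear receptor, read 345 and 395 against 573 and 549, a difference of 0.60 ± 0.13. The lines did not overlap for the brightest probe set of either gene, but the 2 further, dimmer probe sets of NR2F6 gave 0.26 and 0.21 with overlap, and the mean over its probe sets was 0.36. RFX1, a winged-helix factor that binds X-box DNA, read 131 and 122 against 133 and 197, a difference of 0.36 ± 0.22 that came mostly from replicate 2. The second probe set of RFX1 was dim and gave 0.15 with overlap. CC2D1A, a regulator of signalling and transcription, read 82.6 and 80.2 against 94.0 and 94.6, a difference of 0.21 ± 0.11, and its further probe sets gave 0.21 to 0.26. SAMD1, a reader of unmethylated CpG islands, read 134 and 318 against 170 and 414. Its replicates differed by 1.25 and 1.28 in the same direction in both lines, more than the difference of 0.36 ± 0.59 between lines. The second, dimmer probe set of SAMD1 gave 0.04 with overlap.

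Genes of ubiquitin ligases and DNA repair were higher in 4 of 4 cases, with a median of 0.34. ANKLE1, an endonuclease that cuts branched DNA, read 108 and 202 against 215 and 292, a difference of 0.76 ± 0.34. Its lines were apart by a narrow margin, from 202 to 215. DDA1, a small subunit of the CRL4 ubiquitin ligase, read 267 and 268 against 352 and 378, a difference of 0.44 ± 0.12, with 0.41 and 0.13 from its further probe sets. BABAM1, a scaffold of the BRCA1-A and BRISC deubiquitinating complexes, read 718 and 748 against 849 and 885, a difference of 0.24 ± 0.12. Neither gene overlapped between lines. DCAF15, a substrate receptor of CRL4, read 63.1 and 80.6 against 68.9 and 94.2, a difference of 0.18 ± 0.22 with overlap, and one of its further probe sets gave -0.01.

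Signalling genes had a median of 0.11 over 4 genes, of which RLN3 and PALM3 were dim. PRKACA, the main catalytic subunit of protein kinase A, read 141 and 134 against 133 and 165, a difference of 0.11 ± 0.15 with overlapping lines. IL27RA, a chain of the interleukin-27 receptor, read 47.7 and 105 against 83.2 and 155, a difference of 0.68 ± 0.48. Its replicates were 1.14 and 0.90 apart on the log2 scale in the 2 lines, replicate 2 being the higher in both. Further probe sets of IL27RA gave 0.56 and 0.09. RLN3, the brain peptide relaxin-3, read between 14.5 and 17.5 on all arrays, and PALM3, a paralemmin of cell membranes, between 46.5 and 51.3. Both were dim and their lines overlapped.

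Both cytoskeletal members were higher. HAUS8, a subunit of augmin, which seeds microtubules within the spindle, read 77.4 and 95.6 against 136 and 138, a difference of 0.67 ± 0.15. MYO9B, an unconventional myosin, read 92.2 and 98.2 against 102 and 125, a difference of 0.24 ± 0.15, and its further probe sets gave 0.16 and 0.50. The arrays did not overlap for either. Of the remaining members, OCEL1, named for a domain shared with occludin and ELL, read 122 and 118 against 192 and 170, a difference of 0.59 ± 0.13. CPAMD8, a relative of alpha-2-macroglobulin, was dim, with means of 27.2 and 29.6 and a difference of 0.12. USHBP1, a binding partner of harmonin, read between 53.2 and 58.9, with a difference of -0.07.

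Further probe sets mostly pointed the same way. Of the 56 member probe sets, 50 were higher in 320-IWR, as were 23 of the 25 that were not a gene's brightest. All probe sets were higher in 14 of the 16 members with more than 1, the exceptions being DCAF15 and ADGRE2. Probe sets of a gene read the same RNA on the same arrays and are not replicates.

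Adjacent members did not always differ alike. ADGRE5 and DDX39A lie 74 bases apart, with differences of 1.59 and 0.77. DCAF15 and RFX1 lie 80 bases apart, with 0.18 and 0.36, and HAUS8 and MYO9B lie 243 bases apart, with 0.67 and 0.24. These neighbours pointed the same way. ADGRE5 and DDX39A differed in size. So did HAUS8 and MYO9B by their brightest probe sets, but a dimmer one of MYO9B gave 0.50 ± 0.23, closer to HAUS8. The gap between DCAF15 and RFX1 was within the standard error of either, 0.22. IL27RA and PALM3, 148 bases apart, gave 0.68 and -0.06, the second from a dim gene. ABHD8 overlaps the non-member MRPL34, which encodes a protein of the mitochondrial ribosome, by 10853 bases, and they gave -0.23 and 0.79. Bright genes thus stood beside dim ones with little or no difference.

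Genes just outside the stretches were mixed, and several were dim. The 3 measured genes just before CC2D1A were BRME1 at 0.06, and NANOS3 at -0.05 and ZSWIM4 at 0.36, which were dim. Farther out IER2, an immediate early gene, was bright and at 0.96. Just after ADGRE2 came the olfactory receptors OR7C1 at 0.02, OR7A5 at 0.05 and OR7A10 at -0.16, which were dim. Just before CPAMD8 lay SIN3B at 0.19, TMEM38A at 0.93 and F2RL3, which was dim, at 0.15. Just after PLVAP lay MVB12A at 0.47, and BST2 at -0.20 and TMEM221 at 0.11, which were dim. Measured non-members inside the stretches were PODNL1 at 0.15, PTGER1 at 0.10 and MRPL34 at 0.79, and the dim LINC01842 at 0.04 and ZNF333 at -0.20.

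Between the stretches, over 2114 kb, 47 genes that are no members had a median of 0.13, and 34 were higher. The 17 bright ones among them had a median of 0.45, from -0.17 for SYDE1 to 0.93 for TMEM38A. Of these 17, 16 were higher, against 52.2% of all bright genes, and 12 were higher without overlap, against 23.1%. All 8 bright genes among the 10 before the first stretch were higher, with a median of 0.37, and so were all 6 among the 10 after the second, with a median of 0.43. Bright genes outside the chosen list were therefore shifted by an amount that overlapped the members' range.

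**Figure D2:**
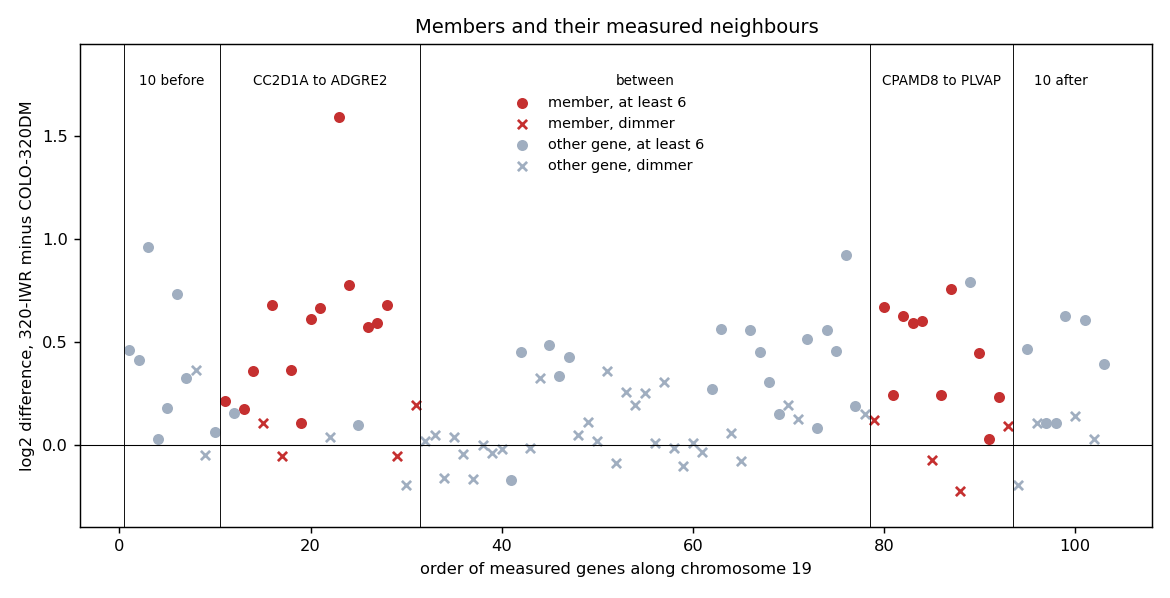
Log2 difference between the lines for the members (red) and their measured neighbours (grey), in the order of genes along chromosome 19, with circles for genes with a mean log2 intensity of at least 6 in a line and crosses for dimmer ones. Vertical lines bound the 2 stretches. Circles lie mostly above 0 in all 5 sections and crosses lie near 0.

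A running median over 11 neighbouring genes, which takes bright and dim genes together, ranged from 0.04 to 0.59 at the members. It was 0.59 at ADGRE5 and DDX39A in the first stretch and at NR2F6 and USHBP1 in the second. It ranged from -0.04 to 0.46 between the stretches, from 0.18 to 0.41 over the 10 genes before and from 0.11 to 0.14 over the 10 genes after. Along the whole chromosome it ran from -0.55 to 0.59, and 1 non-member reached the highest value of the members. Windows at the members hold genes chosen for being high, so nothing is read from where the highest value lies.

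Bright genes were shifted over much of chromosome 19. The ranges below were set after the values were seen, and the members are left out of them. From 0 to 20 Mb, the section that holds both stretches, 279 of 323 bright genes were higher and the median was 0.35, with medians of 0.31 to 0.48 in its 2-Mb bins. The 23 bright members had a median of 0.59, but they were chosen for being high, so nothing is read from their place in the section. From 26 to 36 Mb, past the centromere, 40 of 47 bright genes were higher, with a median of 0.40. From 36 to 38 Mb the sign turned, with 9 of 25 higher and a median of -0.46. From 38 to 54 Mb 118 of 235 were higher, with a median of 0.00, and from 54 Mb to the end 58 of 72 were higher, with a median of 0.27. The dimmer genes from 0 to 20 Mb had a median of 0.03, near that of the dimmer members. Over bright genes, here with the members included, chromosome 19 had the second highest median of 23 chromosomes, 0.16 against 0.21 for chromosome 11. Without the members its median was 0.15.

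**Figure D3:**
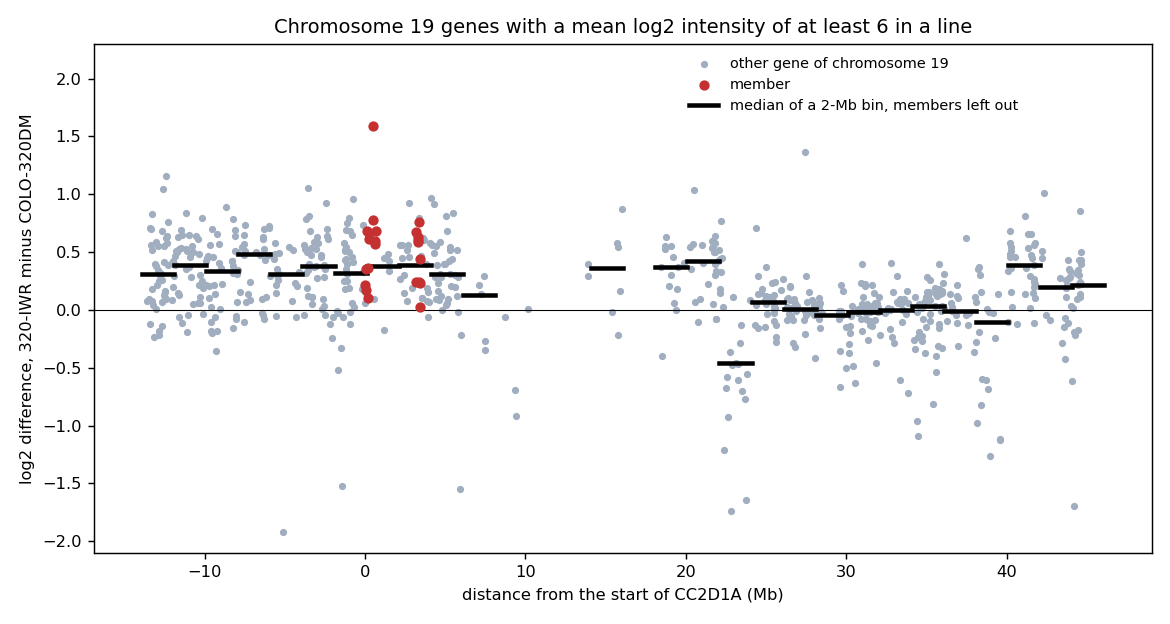
Log2 difference between the lines for chromosome 19 genes with a mean log2 intensity of at least 6 in a line, by distance in Mb from the start of CC2D1A, with members in red, other genes in grey and black bars at the median of each 2-Mb bin with at least 5 other genes. The bars lie above 0 from the left end through both clusters of members, dip to -0.46 past 20 Mb, lie near 0 beyond and return above 0 at the right end.

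Promoter GC content moved little with the difference outside chromosome 19. Bright genes off chromosome 19, split into 5 bins by promoter GC, had medians between -0.01 and 0.02. Bright chromosome 19 non-members, from the lowest to the highest GC bin, had medians of 0.11, 0.14, 0.20, 0.15 and 0.24. The share of them that was higher was 59.8% in the lowest bin and 82.4% in the highest. Bright members with a promoter in the table had medians between 0.23 and 0.63, each over 2 to 5 genes. Whether GC content bears on the difference was not tested.

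Genes whose products work with the members, or are related to them, had a median difference near that of all genes. Of 136 such partner genes in 18 lists, 126 were measured, 6 of them on chromosome 19. Off that chromosome 71 of 120 were higher, with a median of 0.06, against 0.08 for the 6 on it. Of the 126, 4 were called, all off chromosome 19, where 0.592% of all genes were called in either direction, and 20 had an unadjusted p under 0.05, against 12.3% of all genes. The rule for the members did not use these genes, but the lists were written with earlier results of these data known, so the p-values below are no independent evidence.

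Protein kinase A held 2 of the calls. PRKAR2B, a regulatory subunit, rose from 221 and 312 in COLO-320DM to 1247 and 1129 in 320-IWR, a difference of 2.18 ± 0.20 (limma adjusted p = 0.0453). PKIB, an inhibitor peptide of the kinase, rose from 14.3 and 16.6 to 60.8 and 63.7, a difference of 2.02 ± 0.13 (limma adjusted p = 0.0197), and was dim in both lines. Both changes were larger than that of PRKACA. Of the 9 partners of PRKACA, 7 were higher, while PRKACB, the second catalytic subunit, differed by -0.38 and the regulatory subunit PRKAR1A by -0.31, neither of which was called.

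ELOVL7 and ADGRL2 were the other calls. ELOVL7, which starts a cycle of fatty acid elongation that TECR ends, fell from 285 and 266 to 118 and 114, a difference of -1.24 ± 0.12 (limma adjusted p = 0.0492). ADGRL2, a paralogue of ADGRL1, fell from 348 and 406 to 75.5 and 80.3, a difference of -2.27 ± 0.14 (limma adjusted p = 0.0156), but a dimmer probe set of it that does not end in _s_at or _x_at gave 0.04. Both moved against their partners on chromosome 19. Each of the 4 calls was lost when any single array was left out, with limma adjusted p between 0.0638 and 0.372.

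In the other lists 0 genes were called. HAUS8 stood at 0.67, while the 6 measured subunits of augmin beside it had a median of 0.09, with HAUS1 at 0.16 and HAUS6 at 0.04. NDUFB7 stood at 0.68, while 10 further B subunits of complex I had a median of 0.00, with NDUFB8 at -0.03. ASF1B stood at 0.61, while its paralogue ASF1A differed by -0.09 and 8 histone chaperones had a median of -0.10. In these complexes the member encoded in 19p13 thus lay above the median of its partners, and the members had been chosen for being high.

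DDX39A stood at 0.77 against a median of 0.07 for 7 measured partners in mRNA export, with the adaptor ALYREF at 0.06. USE1 stood at 0.63 against 0.12 for 7 partners of the syntaxin 18 complex, with STX18 itself at 0.15. BABAM1, at 0.24, was closer to its partners BABAM2 at 0.18 and BRCC3 at 0.14. For DDA1 and DCAF15, the adaptor DDB1 differed by 0.50 ± 0.17 (limma adjusted p = 0.420), the scaffolds CUL4A and CUL4B by -0.05 and -0.18. HSF1, the heat shock factor that drives DNAJB1, differed by -0.34, and 12 measured chaperone genes had a median of 0.04. IL6ST, the second chain of the interleukin-27 receptor, differed by 0.01, RXFP3, the receptor of relaxin-3, by 0.06, and NR2F1, a relative of NR2F6, by -0.24. MTO1, which acts with GTPBP3, differed by 0.18. HSD17B12, which acts in the same elongation cycle as TECR, differed by 0.47 ± 0.12 (limma adjusted p = 0.286). The 8 measured partners of RFX1 had a median of 0.19, and without overlap 5 of them were higher and 1 was lower. Among all genes, 23.1% of the bright and 18.5% of the dimmer ones were higher without overlap. The 5 included RFX2 at 0.34 and RFXANK at 0.55, both on chromosome 19. They also included RFX4 at 0.24 and RFX6 at 0.50, which were dim. RFX3 was at -0.04 and RFX5 at -0.08. ADGRE1, a relative of ADGRE5 that also lies on chromosome 19, was dim at -0.01, and GIPC2, a relative of GIPC1, was dim at 0.06. MYO9A and CC2D1B, the homologues of MYO9B and CC2D1A, differed by 0.18 and 0.06.

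**Figure D4:**
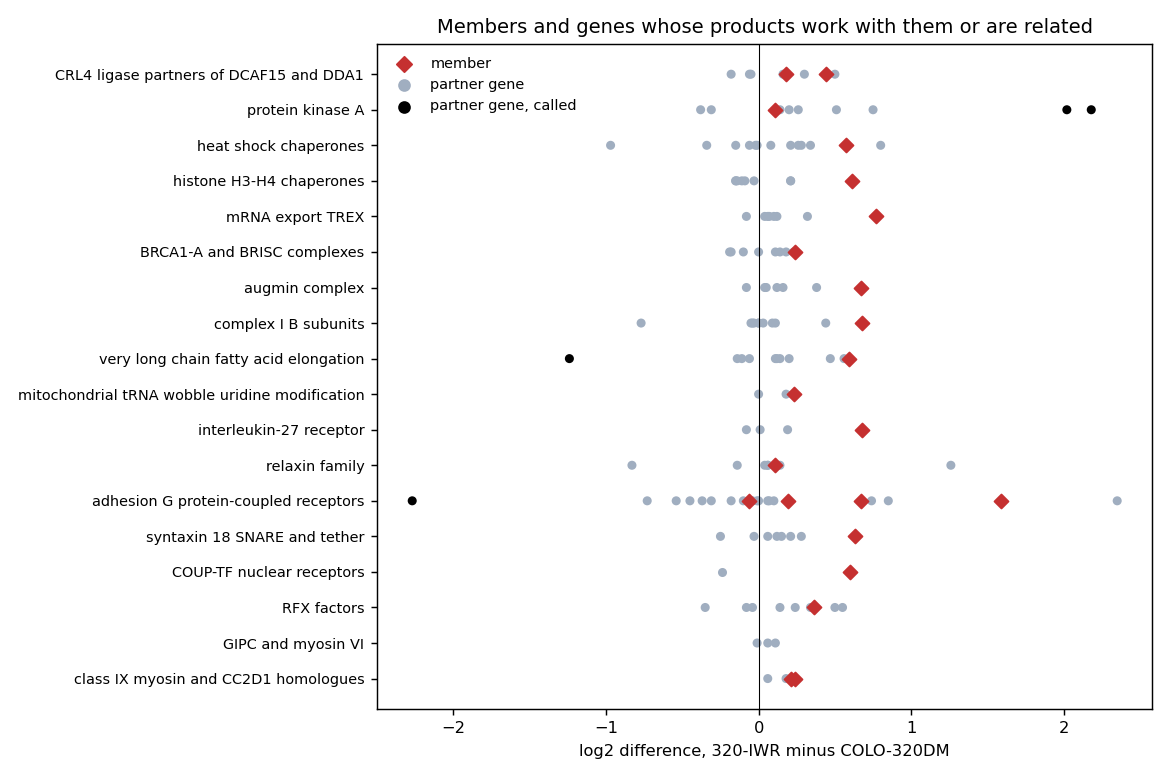
Log2 difference between the lines for members (red diamonds) and the genes whose products work with them or are related to them (grey circles, black where called), one row for each of the 18 lists. Most members lie to the right of the middle of their rows, PRKACA and ADGRE3 being exceptions, and the called genes PRKAR2B, PKIB, ELOVL7 and ADGRL2 lie far from 0 in both directions.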

How the data were processed

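RNA of the 2 lines was read on GeneChip Human Genome U133 Plus 2.0 microarrays, a pair for either line, and each array was assigned to its line by its label. The deposited values are probe set intensities that the authors made with RMA, per the submitters' processing notes, and the study's methods name GeneSpring GX for the normalization. They run from 3.51 to 22475 on a linear scale, and were converted to log2 (floor 1, reached by no value). Scanner files were not used here.

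The 62 control probe sets were left out and 54613 were fitted with limma 3.58.1 in R 4.3.3 (lmFit and eBayes, cell line as the only term), with the calls defined above. Probe sets were named where the annotation gave exactly 1 symbol (41091, with 1801 having several and 11721 none). Gene order, coordinates and promoter sequences came from RefSeq tables of GRCh38.p14. Tables were made with Python 3.11.15 and pandas 2.3.3. The number of arrays limits the precision.

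The members, partner and marker lists, tests and alternatives were chosen with earlier results of these data known. The members whose mean log2 intensity reached 6 in a line are given on every array, and the dimmer ones by range or mean, except ADGRE2, ADGRE3 and ABHD8. Of the partners, those called and a hand-written list of close ones are named, as are the nearest neighbours of each stretch and the extremes between them. ALYREF, RFX2, RFX3, RFX4, RFX6, RFXANK, MYO9A, CC2D1B, IER2 and the non-members inside the stretches were named after their values were seen. Alternatives were a block for the replicate number, dropping each array in turn, other normalizations, filters, priors, probe set rules, fold limits and windows.

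Replicate numbers come from the sample titles. The difference of replicate 2 from replicate 1 correlated at 0.67 between the lines over genes, but no label says that a number marks a shared culture or day.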

Additional observations from a re-analysis of the deposited data

How the results depend on the processing

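Of 54613 probe sets, 202 were called. With the replicate number as a block 576 were called, 182 of them higher, while the calls of ADGRE5 and the 4 partner genes stayed. The numbers are not known to pair the arrays, so this is no firmer a count. Leaving out 1 array gave between 0 and 63 called probe sets. It was 63 without COLO-320DM replicate 1, 58 without COLO-320DM replicate 2 and 0 without either 320-IWR array, where 3756 and 3502 probe sets had an unadjusted p under 0.05. In each of these fits a line has 1 array, whose spread is assumed to be that of the other line. Leaving out 1 array, 0 members and 0 partner genes were called, and the median difference of the members lay between 0.2052 without COLO-320DM replicate 1 and 0.4960 without 320-IWR replicate 1.

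Over the 23 members that pass a filter on dim probe sets the median was 0.5906. When the probe sets ending in _s_at or _x_at were dropped, which can read several transcripts, 115 of 39114 probe sets were called. Of 22 members 0 were called, since the one probe set of ADGRE5 was left out. Of the 22, 12 were higher without overlap, but the share of all genes was not taken here, so nothing is read from it. In this setting 2 of 103 partner genes were called. There ADGRL2 turned to 0.0383 and ELOVL7 missed the threshold (adjusted p = 0.0544), as it did with a trended robust prior (adjusted p = 0.077). A fold limit with no test took in 1062 probe sets. With a window of 21 genes the highest running median at the members was 0.4448, against 0.5926 with 11. Calls numbered 250 after cyclic loess, 238 with array medians made equal, 217 after the filter on dim probe sets, 169 with the trended prior and 185 when a gene's probe sets were averaged, and ADGRE5 was called in each. The mean over probe sets moved 7 members by more than their replicate spread, the set without _x_at and _s_at 3 and cyclic loess 1. Leaving out 1 array turned the sign of 8 members, 4 of them bright, and of the other settings the set without _x_at and _s_at turned ADGRE2, to -0.01. The causes of these differences were not tested.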
